A study of Mus musculus with 4 samples.

Results

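The cytochrome P450 genes of the mouse were read in the brain cortex of SAMP8 mice given TCQA or water. Members were the rows of the array table whose platform gene symbol had the form of a P450 gene (Cyp, a family number, a subfamily letter and a gene number), with Cyp51 left out. The rule took 97 of the 22206 gene probe sets, 1 probe set for each of 97 symbols, of which 93 were protein-coding genes and 4 were transcribed pseudogenes in the RefSeq annotation. They covered 36 subfamilies. Cyp19a1 and Cyp4v3 were not analysed here.

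Every mouse was a male of SAMP8, a senescence-prone strain with early memory loss, so the controls carried the same background as the treated mice and no other strain was measured. The mice were kept 1 to a cage for 4 months from 7 months of age and were then treated for 1 month from the age of 11 months. The TCQA group (2 arrays) received TCQA, which the labels name only by these letters, orally at 5 mg/kg each day, and the control group (2 arrays) received MilliQ water. Whether each array was a mouse of its own is not stated in the labels, and the tests therefore cover the spread seen among 4 arrays, part of which may be technical.

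P450 enzymes are haem proteins that insert an oxygen atom into a substrate. Those of the endoplasmic reticulum take electrons from P450 oxidoreductase or cytochrome b5, and those of mitochondria take them from ferredoxin. In the liver, families 1 to 4 clear drugs and fatty acids, while other families make bile acids, steroid hormones and active vitamin D or break down retinoic acid. In the brain the group is best known for Cyp46a1, the neuronal enzyme that hydroxylates cholesterol so that it can leave the brain, and for enzymes that act on neurosteroids and on arachidonic acid.

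Values are log2 signals, so a difference of 1 is a doubling. A probe set's brightness depends on its probes and on cross-hybridization as well as on the amount of RNA, so each level was set only against the median of all gene probe sets on the same array, and no gene was ranked above another in amount. That median was 7.12 to 7.17 on the 4 arrays, close to that of the 5222 negative controls on the array (7.17 to 7.32). Of the markers set beside the tissue label, all 6 measured neuronal markers lay above the gene median on all 4 arrays, and all 8 hepatocyte markers and all 3 adrenal cortex markers lay below it on all 4. The choroid plexus markers were uneven, and the log2 of their summed signals was 12.42 and 15.02 with TCQA and 9.32 and 16.44 in control. Such a sum is weighted to the brightest markers, here Ttr (12.23 and 14.97 with TCQA, 7.49 and 16.42 in control). The mean of all 7 immediate early genes was lower with TCQA. Precision is limited by having 4 arrays.

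Most P450 genes were dim in cortex. Of the 97, 14 (14.4%) lay above the gene median on all 4 arrays, against 47.3% of all gene probe sets. A further 4 were above it on 1 to 3 arrays and 79 were below it on every array. The median member had a mean signal of 4.79, against 7.14 for all gene probe sets. All 14 were also above the negative control median on every array, and the 79 were below it on every array. The next members outside the 14 were Cyp4f16, which was above the gene median on 3 arrays, Cyp4f37 on 2, and Cyp2j12 and Cyp39a1 on 1 each.

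**Figure D1:**
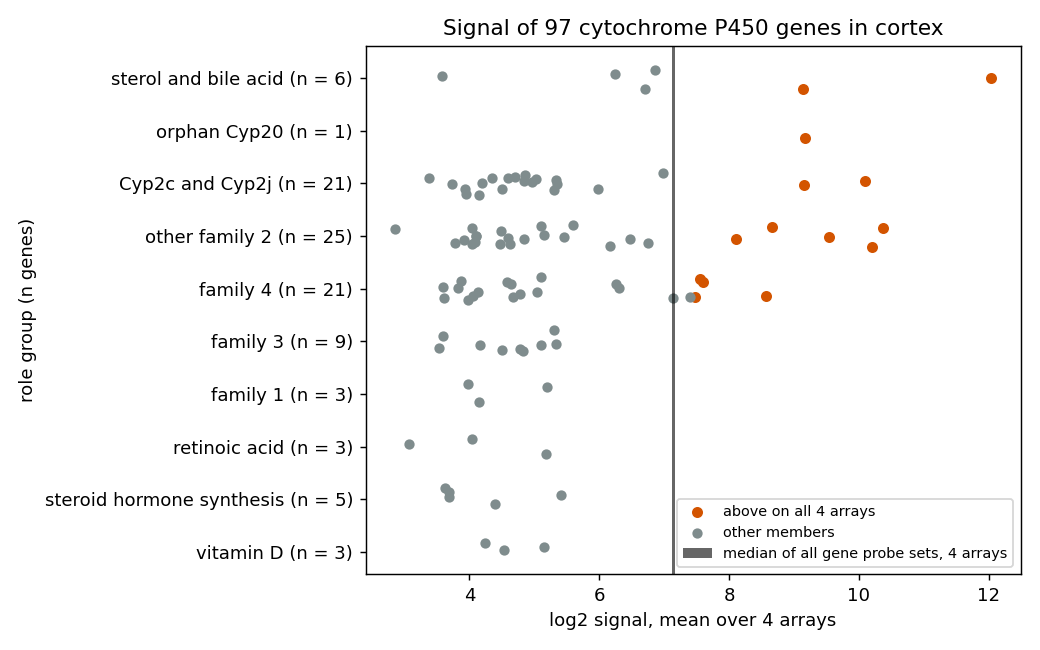
Mean log2 signal over 4 arrays (horizontal axis) of each of the 97 P450 genes, grouped by role (vertical axis, with the number of genes); 1 point is 1 gene, spread vertically only for legibility, and the dark band is the range of the 4 array medians. The 14 orange genes lay above the band on all 4 arrays, and none of the genes of families 1 and 3, retinoic acid, steroid hormone synthesis or vitamin D did.

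The sterol enzymes Cyp46a1 and Cyp7b1 were above the gene median on every array. The signals of Cyp46a1 were 12.23 and 12.04 with TCQA and 11.996 and 11.85 in control. Both TCQA arrays were above both control arrays, by 0.21 in the mean (95% confidence interval -0.23 to 0.66, limma adjusted p = 0.868), against a gap of up to 0.19 between replicates. Cyp7b1, which hydroxylates oxysterols and neurosteroid precursors such as pregnenolone, was at 9.29 and 9.42 with TCQA and 8.85 and 9.02 in control. Its groups did not overlap, and the difference was 0.42 (95% confidence interval -0.01 to 0.86, limma adjusted p = 0.799). Cyp20a1, an orphan P450 with no settled substrate, had values of 9.34 and 9.41 with TCQA and 8.90 and 9.03 in control. The difference was 0.41 (95% confidence interval -0.01 to 0.84, limma adjusted p = 0.799), again with no overlap. Among the 14 bright members the groups did not overlap for these 3 (21.4%), against 39.9% of all gene probe sets above the gene median on every array. Cyp7b1 and Cyp20a1 did not pass an unadjusted p of 0.05 here, but did so when only probe sets at or above the median signal were tested.

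Of family 2, Cyp2u1, which hydroxylates long-chain fatty acids, was at 10.51 and 9.93 with TCQA and 10.48 and 9.89 in control. Replicate 1 was the higher array in both groups, and the groups differed by 0.04 (SE 0.29). Cyp2j6 and Cyp2j9 belong to a subfamily whose enzymes oxidize arachidonic acid. Cyp2j6 had signals of 10.31 and 9.94 with TCQA and 10.15 and 10.002 in control, with the control values inside the TCQA range. Cyp2j9 was at 8.99 and 9.53 with TCQA and 8.94 and 9.15 in control, a difference of 0.21 (SE 0.24) that was smaller than the gap between the TCQA arrays. The other 5 measured Cyp2j genes were not above the gene median on all arrays, and neither was any of the 14 Cyp2c genes.

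The Cyp2d subfamily had 4 of its 9 measured genes among the bright members. Cyp2d22, the mouse gene usually set beside human CYP2D6, a drug-metabolizing enzyme, was at 9.30 and 9.61 with TCQA and 9.84 and 9.42 in control. Cyp2d13 had 10.15 and 10.60 with TCQA and 10.30 and 10.45 in control, and both groups had the same mean of 10.37. Cyp2d9, a testosterone hydroxylase of male liver, was at 8.55 and 8.73 with TCQA and 8.59 and 8.75 in control. Cyp2d10 had 8.39 and 7.84 with TCQA and 7.83 and 8.40 in control. The groups overlapped for all 4 genes. The Cyp2d genes are close copies of each other and the probe sequences were not used here, so signal of one copy on the probe set of another was not tested.

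Family 4 enzymes hydroxylate fatty acids and leukotrienes at the end of the chain. Cyp4x1, a member known for its expression in brain, had signals of 8.99 and 7.96 with TCQA and 8.81 and 8.52 in control, and the gap between the TCQA arrays was the widest among the 14. Without TCQA replicate 1 its difference was -0.71 with a call, and without TCQA replicate 2 it was 0.33, against -0.19 with all arrays. Cyp4f15 (7.64 and 7.51 with TCQA, 7.59 and 7.66 in control), Cyp4f13 (7.70 and 7.37, then 7.40 and 7.74) and Cyp4f18 (7.53 and 7.39, then 7.59 and 7.36) lay just above the gene median, with overlapping groups. All 8 Cyp4a genes, lipid-induced fatty acid hydroxylases of liver and kidney, were below the gene median on all 4 arrays.

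**Figure D2:**
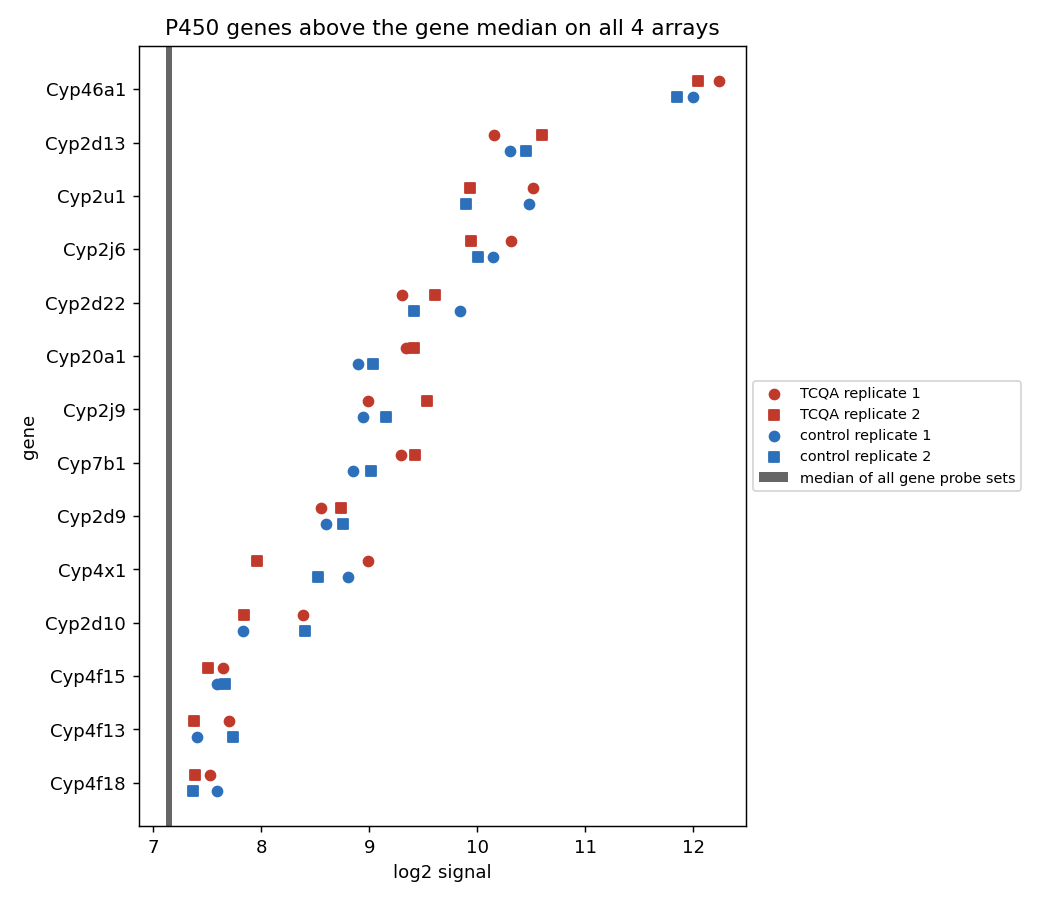
Log2 signal (horizontal axis) on each of the 4 arrays for the 14 P450 genes that lay above the gene median on every array; red marks are TCQA and blue marks control, circles replicate 1 and squares replicate 2, and the dark band is the range of the array medians (7.12 to 7.17). Cyp46a1, Cyp20a1 and Cyp7b1 are the genes whose red and blue marks do not interleave (21.4% of the 14, against 39.9% of all gene probe sets above the band on every array).

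Promoter sequence was set beside these levels, since broadly used promoters are often rich in CG dinucleotides and many liver P450 promoters are not. RefSeq windows (build GRCm38.p6) of 300 bases, from 250 before to 50 after a start site, were found for 71 of the 97 genes, as 79 windows. The median member window held 2 CG dinucleotides, against 7 over all 32851 windows. Of the 9 windows of bright members, 2 held 10 or more, those of Cyp46a1 (31) and Cyp20a1 (20), whereas 79.7% of the windows of all genes above the gene median on every array did. The other 7 bright members with a window, among them Cyp2j6, Cyp2j9, Cyp2d9 and Cyp2d10, held 1 to 6. The bright members Cyp7b1, Cyp2u1, Cyp2d13, Cyp2d22 and Cyp4x1 had no window, so their promoters were not examined. Of the 67 windows of members below the gene median on all arrays, 6 (8.96%) held 10 or more, against 32.9% for all genes below it on every array. These 6 belonged to Cyp26a1, Cyp2r1, Cyp2s1, Cyp1b1, Cyp4f39 and Cyp27a1.

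The 200 bases before the start site are given for 5 of them, 5′ to 3′ on the gene's strand with CG dinucleotides in capitals. Cyp46a1 and Cyp20a1 show the CG-rich bright members, Cyp2j6 a bright member with few, Cyp1b1 a CG-rich gene that was dim in cortex, and Cyp2e1, an ethanol-metabolizing enzyme of liver, a dim gene with few.
Cyp46a1 (chr12:108334116-108334315, plus strand): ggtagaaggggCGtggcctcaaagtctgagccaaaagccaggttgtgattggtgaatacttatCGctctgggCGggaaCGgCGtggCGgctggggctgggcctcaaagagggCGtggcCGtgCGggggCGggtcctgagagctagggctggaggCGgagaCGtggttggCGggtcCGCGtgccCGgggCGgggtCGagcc
Cyp20a1 (chr1:60343100-60343299, plus strand): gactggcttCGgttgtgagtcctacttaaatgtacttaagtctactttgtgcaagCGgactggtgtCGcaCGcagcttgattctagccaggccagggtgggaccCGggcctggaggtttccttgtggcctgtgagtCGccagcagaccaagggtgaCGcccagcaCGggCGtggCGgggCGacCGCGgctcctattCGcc
Cyp2j6 (chr4:96553652-96553851, minus strand): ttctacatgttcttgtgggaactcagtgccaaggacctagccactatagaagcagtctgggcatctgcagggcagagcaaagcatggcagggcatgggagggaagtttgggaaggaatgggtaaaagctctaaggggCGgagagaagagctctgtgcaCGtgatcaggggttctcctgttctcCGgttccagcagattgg
Cyp1b1 (chr17:79715062-79715261, minus strand): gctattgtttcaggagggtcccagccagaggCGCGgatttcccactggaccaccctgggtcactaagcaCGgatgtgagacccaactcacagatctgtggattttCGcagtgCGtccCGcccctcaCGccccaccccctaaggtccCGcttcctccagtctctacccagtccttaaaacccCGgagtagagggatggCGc
Cyp2e1 (chr7:140763619-140763818, plus strand): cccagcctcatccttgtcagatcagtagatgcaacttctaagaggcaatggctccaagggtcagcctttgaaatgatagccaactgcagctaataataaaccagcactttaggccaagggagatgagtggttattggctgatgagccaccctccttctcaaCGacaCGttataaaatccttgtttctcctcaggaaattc

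The printed stretch held 18 CG dinucleotides for Cyp46a1, 14 for Cyp20a1, 10 for Cyp1b1, 3 for Cyp2j6 and 2 for Cyp2e1. The letters TATAAA, on either strand, were in 28 of the 67 windows of dim members (41.8%) and in 2 of the 9 of bright members, against 13.6% of all windows and 19.02% of those of all genes below the gene median on every array. On the gene's own strand, within the 60 bases before the start, TATAAA was in 11 windows of dim members (16.4%), among them that of Cyp2e1, in 0 of bright members and in 2.87% of all windows. The core letters of the site bound by the aryl hydrocarbon receptor, GCGTG on either strand, were in 15 of the 79 member windows and in 32.4% of all windows. These were 3 of the 9 windows of bright members, 10 of the 67 of dim members (14.9%) and 2 of the others. Among all genes above and below the gene median on every array, 50.4% and 26.7% of windows had a match. GCGTG itself holds a CG dinucleotide. Cyp1a1 and Cyp1b1, known targets of that receptor, each had 1 match, and Cyp1a2 had 0. A match is a run of letters only, and the windows of subfamily copies are not independent of each other.

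**Figure D3:**
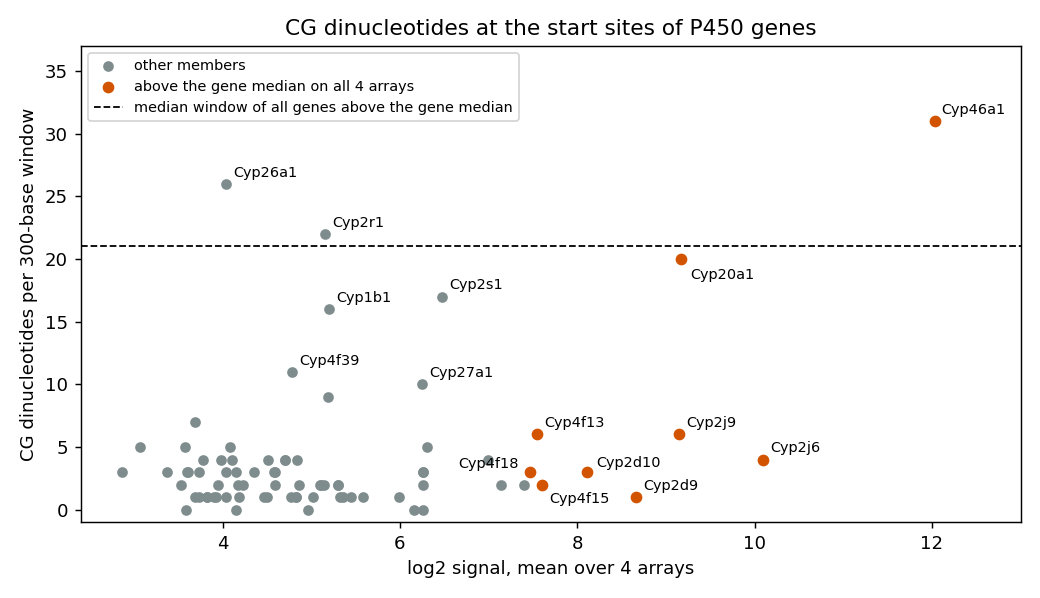
CG dinucleotides per 300-base RefSeq window (vertical axis) against mean log2 signal over 4 arrays (horizontal axis); 1 point is 1 of the 79 windows of 71 P450 genes, orange where the gene was above the gene median on all 4 arrays, and the dashed line is the median (21) of the windows of all genes with that property. Only Cyp46a1 and Cyp20a1 among the 9 orange points come near the line or pass it, and the rest of the 14 bright members had no window.

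The comparison of the groups asked which P450 genes differed in cortex after 1 month of TCQA. None passed after Benjamini-Hochberg adjustment of the limma p over all 22206 probe sets (0 of 97 members and 0% of all probe sets, smallest adjusted p among members 0.787). At an unadjusted p under 0.05, 6 of the 97 members (6.19%) were called, against 6.24% of all gene probe sets. Of these 6, 4 had the higher mean with TCQA and 2 the lower, where 3.38% and 2.86% of all gene probe sets did. The share of members called was thus the share of genes at large. The depositors' criterion, which joins an unadjusted p of less than 0.05 to a change of more than 2-fold, was met by 0 members and by 0.374% of all probe sets. A higher mean with TCQA was found in 56 of 97 members (57.7%), against 51.1% of all probe sets, and the median difference was 0.04, against 0.01. Both TCQA arrays lay above both control arrays for 20 members (20.6%) and below them for 12 (12.4%), against 18.9% and 17.8% of all probe sets. In whole tissue, fewer cells of a type and less RNA per cell cannot be told apart.

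All 6 called members lay below the gene median, and below the negative control median, on all 4 arrays. Of the 79 dim members 7.59% were called, against 7.32% of all gene probe sets below the gene median on every array. Replicates of dim members were further apart, with a median within-group standard deviation of 0.28 for the 79 members below the median on every array, against 0.22 for the 14 bright ones. Over all gene probe sets the corresponding values were 0.23 below and 0.15 above the median on every array. No array stood out over the members: each was the highest for 18 to 30 of the 97 and the lowest for 22 to 28.

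**Figure D4:**
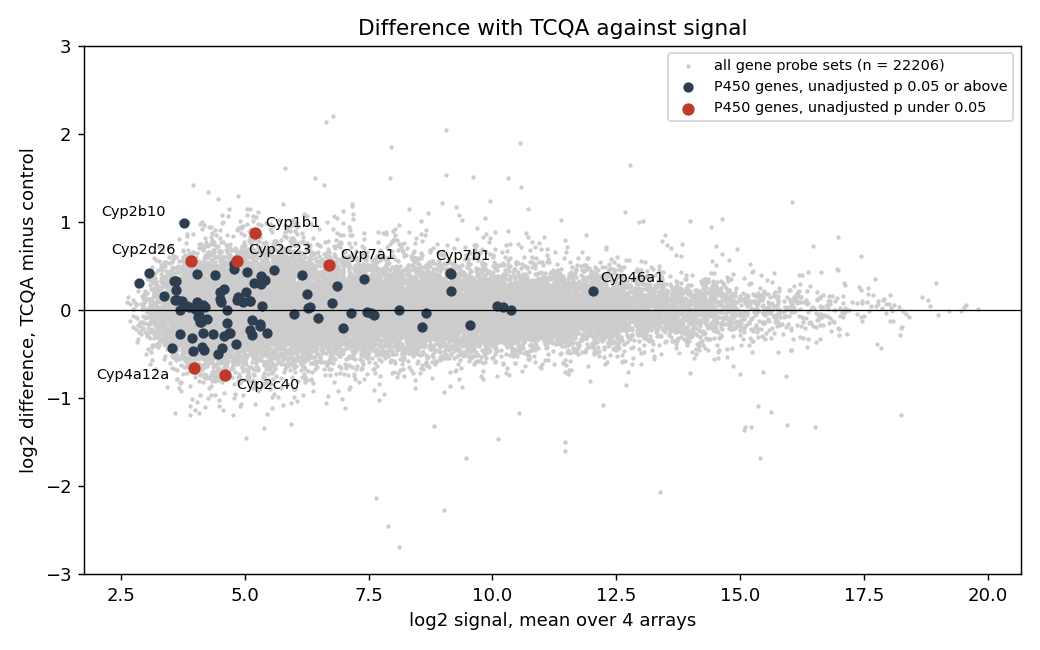
Log2 difference, TCQA minus control (vertical axis), against mean log2 signal over 4 arrays (horizontal axis), for all 22206 gene probe sets (grey) and the 97 P450 genes (dark, or red at an unadjusted limma p under 0.05). The 6 red genes all lie left of the gene median of 7.14, within the grey cloud, and no P450 gene differed by 1 or more.

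Cyp1b1, which oxidizes oestrogens and aromatic hydrocarbons and is expressed in vessel-associated cells, had the largest difference of the called members. Its log2 signals were 6.16 and 5.11 with TCQA and 4.80 and 4.71 in control. TCQA replicate 1 stood well above the other 3 arrays. The difference was 0.88 (95% confidence interval 0.04 to 1.71, limma adjusted p = 0.787), 0.35 without TCQA replicate 1 and 1.40 without TCQA replicate 2, and it stayed near its size without control replicate 1 (0.92) or control replicate 2 (0.83), though neither of these was called. Beside it, the log2 of the summed signals of the 5 endothelial markers was 14.44 to 14.45 with TCQA and 13.94 to 14.09 in control. Most of that sum came from Ly6c1 (13.63 and 13.54 with TCQA, 13.24 and 13.01 in control) and Slco1a4 (12.70 and 12.87, then 12.35 and 12.28). Of these markers 4 of 5 were higher in the mean, against 51.1% of all gene probe sets. Pecam1 was the lower one, at 7.84 and 7.75 with TCQA and 8.14 and 7.97 in control. As a log2 sum the 5 mural cell markers gave 10.54 to 10.82 with TCQA and 10.40 to 10.71 in control, mostly from Rgs5. Of them, 3 of 5 were higher and 3 lay below the gene median on every array. The 9 meningeal fibroblast markers summed to 11.20 to 11.28 and 10.24 to 11.33, with 9 of 9 higher and 5 below the gene median on every array. Their part in the Cyp1b1 difference was not tested. The other family 1 genes, Cyp1a1 and Cyp1a2, the classic hydrocarbon-induced enzymes, were dim. Cyp1a1 was at 3.81 and 4.18 with TCQA and 4.25 and 3.70 in control, with overlapping groups, and Cyp1a2 at 4.17 and 3.87 against 4.38 and 4.17, where the nearest arrays of the groups all but touched.

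Cyp7a1, the rate-limiting enzyme of bile acid synthesis in the liver, was at 6.94 and 7.00 with TCQA and 6.24 and 6.66 in control. The groups did not overlap, and the difference of 0.52 (SE 0.21, limma adjusted p = 0.788) became 0.31 without control replicate 1. The call was also lost without either TCQA array, at differences of 0.55 and 0.49. Cyp2c23, an arachidonic acid epoxygenase best known from kidney, had close replicates, at 5.05 and 5.20 with TCQA and 4.56 and 4.57 in control, a difference of 0.56 (SE 0.18, limma adjusted p = 0.787). Leaving out an array moved it only between 0.48 and 0.64, while the call held only without TCQA replicate 1. Cyp2d26 was at 3.96 and 4.42 with TCQA and 3.71 and 3.55 in control, a difference of 0.56 that became 0.33 without TCQA replicate 2. Leaving out a control array gave 0.64 or 0.48, neither of them called.

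The called members with the lower mean were Cyp2c40 and Cyp4a12a, genes of arachidonic acid and fatty acid hydroxylation. Cyp2c40 was at 4.41 and 4.05 with TCQA and 4.66 and 5.27 in control. The difference of -0.74 (SE 0.26, limma adjusted p = 0.787) became -0.43 when control replicate 2 was left out, and -1.04 when control replicate 1 was, and without TCQA replicate 2 it was -0.56 and not called. Cyp4a12a, an androgen-dependent gene of male kidney, had signals of 3.59 and 3.70 with TCQA and 4.47 and 4.14 in control, a difference of -0.66 (SE 0.20, limma adjusted p = 0.787). It was -0.49 without control replicate 1 and -0.61 without TCQA replicate 1, both without a call. Its near copy Cyp4a12b was at 4.37 and 4.92 with TCQA and 4.62 and 4.67 in control, with overlapping groups. These copies share most of their sequence, so their separate values are uncertain.

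Among members that were not called, Cyp2b10, a drug-induced liver enzyme, had the largest difference, 0.99 (95% confidence interval -0.11 to 2.08, limma adjusted p = 0.799). The values were 5.01 and 3.53 with TCQA and 3.24 and 3.33 in control, so that 1 TCQA array carried most of it. The difference was 0.25 without TCQA replicate 1, and 1.72 with a call without TCQA replicate 2. Cyp1b1 and Cyp2b10 thus had the same high array. Of the lower means without overlap, the next after the called genes was Cyp2b19, a skin enzyme, at 4.31 and 4.13 with TCQA and 5.10 and 4.33 in control. The closely related Cyp3a41a and Cyp3a41b differed by -0.43 and -0.45, also without overlap.

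**Figure D5:**
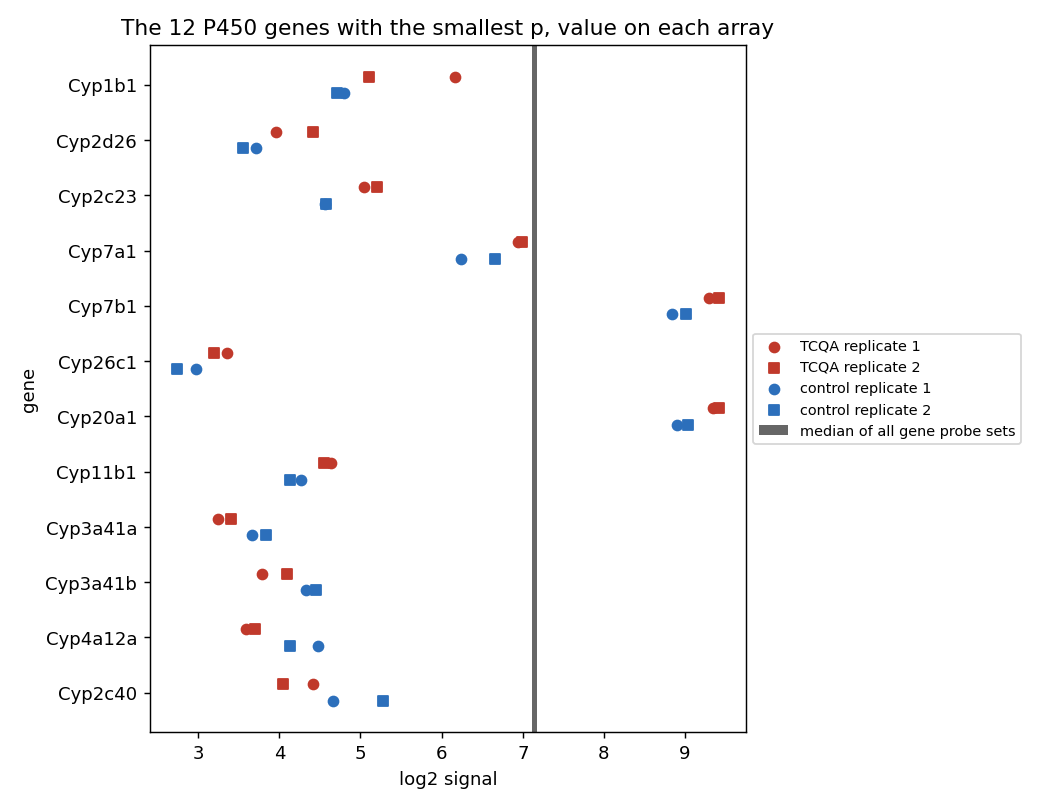
Log2 signal (horizontal axis) on each of the 4 arrays for the 12 P450 genes with the smallest unadjusted limma p, ordered by difference; red marks are TCQA and blue marks control, circles replicate 1 and squares replicate 2, and the dark band is the range of the array medians. Cyp7b1 and Cyp20a1 lie above the band and the other 10 below it, and for Cyp1b1 a single red circle at 6.16 is apart from the other marks.

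By role, all 6 sterol and bile acid genes had the higher mean with TCQA, from 0.19 to 0.52 with a median of 0.30, and 1 of them, Cyp7a1, was called, where 51.1% of all gene probe sets had the higher mean and 6.24% were called. Besides those above, Cyp39a1, which acts on the oxysterol made by Cyp46a1, was at 7.41 and 6.57 with TCQA and 6.61 and 6.83 in control, with overlapping groups. Its difference of 0.27 was -0.15 without TCQA replicate 1 and 0.69, with a call, without TCQA replicate 2. Cyp27a1, the mitochondrial sterol hydroxylase, had 6.18 and 6.50 with TCQA and 6.29 and 6.02 in control. Cyp8b1, needed for cholic acid, was at 3.51 and 3.97 with TCQA and 3.39 and 3.44 in control, without overlap. None of the 6 passed the adjusted threshold, and a list of 6 genes was given no test.

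The steroid hormone genes were dim, at mean signals from 3.62 to 5.41. Of the 5, 3 were higher in the mean and 0 were called, against 51.1% and 6.24% of all gene probe sets. Cyp11a1, which cuts the cholesterol side chain in the first step, was at 3.46 and 3.64 with TCQA and 3.79 and 3.86 in control. Cyp11b1, which makes corticosterone in the adrenal gland, was at 4.64 and 4.55 with TCQA and 4.26 and 4.13 in control, a difference of 0.40 (SE 0.18). The groups did not overlap for either gene, and the directions were opposite. Cyp21a1 was at 5.48 and 5.68 with TCQA and 5.30 and 5.18 in control, also without overlap. The groups did not overlap for 60% of the 5 genes, against 33.7% of all gene probe sets below the gene median on every array. Cyp11b2, of aldosterone synthesis, and Cyp17a1, of androgen synthesis, had overlapping groups, with means between 3.62 and 3.69.

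The retinoic acid hydroxylases Cyp26a1, Cyp26b1 and Cyp26c1 were all below the gene median on every array, with differences from 0.09 to 0.42. Of these 3, 0 were called, against 6.24% of all gene probe sets. Cyp26b1 was at 5.20 and 5.48 with TCQA and 5.18 and 4.88 in control, and Cyp26c1 at 3.36 and 3.19 against 2.98 and 2.74, neither with an overlap. Groups without overlap were found for 33.7% of all gene probe sets below the gene median on every array. The 3 vitamin D genes all had the lower mean, with 0 called, where 51.1% of all gene probe sets had the higher mean and 6.24% were called. Cyp24a1, which inactivates the hormone, was at 4.37 and 4.26 with TCQA and 4.48 and 5.00 in control, without overlap. Cyp2r1, the liver enzyme of the first activation step, was at 5.45 and 4.57 with TCQA and 4.52 and 6.07 in control, the least reproducible of all members by standard error (0.54), and Cyp27b1, of the final step, had overlapping groups. Without control replicate 1 Cyp2r1 differed by -1.06, with a call, and without control replicate 2 by 0.49.

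Other drug-metabolizing and fatty acid genes lay below the gene median on most arrays. All 9 Cyp3a genes, the main drug oxidases of liver, were below the gene median on every array, with means from 3.54 to 5.33. Of these 0 were called, against 6.24% of all gene probe sets. Cyp3a11 was at 4.89 and 5.41 with TCQA and 5.33 and 4.76 in control, with overlapping groups. Cyp3a13 was at 4.45 and 5.62 with TCQA and 4.15 and 4.88 in control, a difference of 0.52 that became 1.11 with a call without TCQA replicate 1. Cyp2e1 was at 4.68 and 5.12 with TCQA and 4.34 and 5.22 in control. Cyp2s1, an epithelial enzyme, had 6.22 and 6.64 with TCQA and 6.45 and 6.60 in control, and Cyp2j12, above the gene median on 1 array, 7.10 and 6.68 against 7.25 and 6.93. The groups overlapped for Cyp3a13, Cyp2e1, Cyp2s1 and Cyp2j12. They did not overlap for 44.4% of the 9 Cyp3a genes, against 33.7% of all gene probe sets below the gene median on every array.

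The other genes of the P450 system came from 5 lists of 93 symbols, of which 81 were measured. At an unadjusted p under 0.05, 4 had the higher and 2 the lower mean with TCQA (7.41% in all, against 6.24% of all gene probe sets), and 0 passed the adjusted threshold. Of the electron donors and haem partners, 9 of 13 were measured and 7 were above the gene median on all 4 arrays, in contrast to most P450 genes. Por, the gene of P450 oxidoreductase, and Fdxr were not among the 9. Of the 9, 2 were called (22.2%, against 6.24% of all gene probe sets), both with the higher mean. Cyb5r3, the reductase of cytochrome b5, was at 12.75 and 12.55 with TCQA and 11.91 and 11.995 in control, a difference of 0.70 (SE 0.18, limma adjusted p = 0.787). The groups were far apart relative to their replicates. The haem oxygenase gene Hmox2 had 12.33 on both TCQA arrays and 11.85 and 11.86 in control, a difference of 0.47 (SE 0.17, limma adjusted p = 0.787) that stayed between 0.47 and 0.48 whichever array was left out, though it was not called on 3 arrays. Cyb5a (11.24 and 11.14 with TCQA, 11.20 and 11.22 in control) and the mitochondrial donor Fdx1 (9.21 and 9.56, then 9.32 and 9.90) had overlapping groups.

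Of the receptors that control P450 genes, 20 of 23 were measured, with 1 called (5%, against 6.24% of all gene probe sets). Ahr, the aryl hydrocarbon receptor that induces family 1, was at 5.05 and 5.01 with TCQA and 5.65 and 6.04 in control, below the gene median on all arrays. The difference was -0.82 (SE 0.20, limma adjusted p = 0.787), opposite in sign to that of its target Cyp1b1. Another target, Tiparp, was at 8.24 and 8.27 with TCQA and 8.53 and 8.72 in control, without overlap. Ahrr, of the same list, was at 6.28 and 6.10 with TCQA and 6.27 and 6.25 in control, with overlapping groups. The drug sensors Nr1i2 and Nr1i3, which induce the Cyp3a and Cyp2b genes, were dim too. Nr1i2 was at 5.68 and 6.003 with TCQA and 5.23 and 5.50 in control, without overlap, and Nr1i3, whose groups overlapped, at 5.44 and 6.05 against 5.98 and 5.60.

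Among partners in sterol, steroid and vitamin D steps 24 of 27 were measured, with 7 higher and 17 lower in the mean and 0 called. Of all gene probe sets 51.1% had the higher mean and 6.24% were called, and the list was given no test. Hsd3b7, which follows Cyp7a1 and Cyp7b1 in bile acid synthesis, was at 5.14 and 5.83 with TCQA and 5.93 and 5.85 in control, where the control arrays were the higher ones by a narrow margin. Tspo, a mitochondrial protein linked to steroid synthesis, was at 5.90 and 5.76 with TCQA and 5.94 and 6.09 in control, and the cholesterol hydroxylase gene Ch25h lay between 3.19 and 3.37 on all arrays. Of the partners in retinoic acid steps 13 of 14 were measured and 0 called, with the synthesis genes Aldh1a1 (8.83 and 8.75 with TCQA, 8.46 and 8.86 in control) and Aldh1a2 (6.53 and 7.00, then 6.31 and 6.89) overlapping.

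Of the partners in fatty acid epoxide and eicosanoid steps 15 of 16 were measured, with 2 higher and 1 lower at an unadjusted p under 0.05 (20% in all, against 6.24% of all gene probe sets). Tbxas1, the thromboxane synthase, is itself a P450 enzyme under another name. It was at 6.69 and 6.48 with TCQA and 5.88 and 5.61 in control, a difference of 0.83 (SE 0.20, limma adjusted p = 0.787), below the gene median on all arrays. Microglia are cells that transcribe Tbxas1. For their 4 markers the log2 of the summed signals was 13.55 to 13.86 with TCQA and 13.50 to 13.55 in control. P2ry12 (13.29 and 13.63 with TCQA, 13.32 and 13.21 in control) made up most of that sum. In the mean 4 of 4 were higher, against 51.1% of all gene probe sets, and 0 were below the gene median on every array. Tmem119 was above it on only 1 array, and the groups overlapped for all 4 markers. Their part was not tested. Ptgis, the prostacyclin synthase and likewise a P450, was at 5.04 and 5.31 with TCQA and 5.12 and 4.86 in control. Ptgds, the prostaglandin D synthase of the meninges, choroid plexus and oligodendrocytes, was at 14.76 and 15.53 with TCQA and 13.61 and 14.62 in control. Its 2.04-fold difference met the depositors' criterion. Control replicate 1 had the lowest summed signals of the meningeal and of the choroid plexus markers, though not of every marker, and their part was not tested. Without control replicate 1 the Ptgds difference was 0.52 on the log2 scale. Its call was also lost without TCQA replicate 2, at 0.64. The epoxide hydrolase gene Ephx3 was at 3.69 and 3.50 with TCQA and 4.14 and 4.10 in control, a difference of -0.53 (SE 0.18) that ran from -0.62 to -0.43 as arrays were left out and kept its call only without TCQA replicate 1. The 2 main epoxide hydrolases were brighter and overlapped between groups, Ephx1 at 9.51 and 9.16 with TCQA and 9.13 and 9.49 in control, and Ephx2 at 8.76 and 8.27 against 8.58 and 8.30.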

How the data were processed

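Per the labels, the authors made the deposited log2 values, 1 per probe set of a Clariom S mouse array, in the Transcriptome Analysis Console 4.0.2 by SST-RMA, which normalizes the arrays to a common distribution. For the annotation, a genome build was not given in the sources used. Groups were taken from the titles. The 6640 control probe sets were left out of the tests, and 19572 of the other 22206 had 1 platform gene symbol, 0 had several and 2634 had none. All 22206 were fitted with limma 3.58.1 in R 4.3.3 (lmFit and eBayes, two-sided, TCQA minus control), with Benjamini-Hochberg adjustment over them, on 2 residual and 4.23 prior degrees of freedom. The procedure was tested on simulated data.

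Called means an unadjusted p under 0.05. Named were members above the gene median on all arrays, called members, the 3 largest differences each way without overlap, a written list of well-known members and partners, and called partners. Cyp4f16, Cyp4f37, Cyp4a12b, Cyp3a41a, Cyp3a41b, Cyp26a1, Cyp26c1, Cyp4f39, Tiparp, Ahrr, Nr1i2 and Nr1i3 were named after their values were seen. The members and lists were chosen with earlier results of these data known, and no list was tested. Alternatives were other array scalings, a trended or no prior, a filter on dim probe sets, a replicate block, other level thresholds and leaving out each array.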

Additional observations from a re-analysis of the deposited data

How the results depend on the processing

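With 2 arrays a group, the counts of called members moved with the arrays used, and 0 members passed the adjusted threshold under any alternative. The number of members above the gene median was 14 or 15 under all of them. Centring or quantile normalization left the 4 higher and 2 lower calls as counts. Without moderation 0 lower calls were left. Testing only the 15 members with at least the median signal gave 2 higher calls (Cyp7b1 and Cyp20a1) and 0 lower, by construction without the dim genes. Leaving out 1 array gave 2 to 6 higher calls and 2 to 6 lower calls. The depositors' criterion was met by 0 to 2 members, which were Cyp3a13 without TCQA replicate 1, Cyp2b10 and Cyp1b1 without TCQA replicate 2, and Cyp2r1 and Cyp2c40 without control replicate 1. The cause was not tested. The median member difference ran from -0.01 to 0.11. The replicate numbers share no stated litter or batch, and deviations of same-numbered arrays correlated at 0.05. With the replicate number as a block there were again 4 higher and 2 lower calls, with Cyp2b10 in and Cyp2d26 out. Every member had 1 probe set, so taking the brightest per gene changed nothing. The 79 members below the gene median on every array also lay below the negative control median. Signal over background was therefore not shown for them, which limits what their differences can mean.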
